A study of Mus musculus with 4 samples.

Results

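Among single cells of the distal mouse digit, a group of keratinocytes carried at least 4 of the 6 genes Sostdc1, Ptprz1, Lmo1, Vsnl1, Lrig1 and Ntrk2. These cells are called Sostdc1/Lrig1 keratinocytes here after a pair of the genes in that rule. They were chosen by measured values. A cell was a keratinocyte when Krt5 and Krt14, the keratins of basal epithelium, together held at least 0.5% of its unique molecular identifiers (UMIs, the count of distinct captured RNA molecules). It was a member when at least 1 UMI was found for 4 or more of the 6 genes and when fewer than 4 of 6 genes of dividing cells (Cenpf, Top2a, Nusap1, Mki67, Ube2c and Prc1) were detected. The rule kept 4235 cells of 93602 that passed the quality limits in all 4 libraries. They were compared with 11619 noncycling keratinocytes that held at most 1 of the 6 genes, called outer-gene-low keratinocytes.

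The digits came from C57BL/6 female mice of 6 to 8 weeks, and hind limb digits 2 to 4 of 10 mice were pooled for each library. For the digit tip model the study's methods describe amputation of the distal phalanx (P3) on digits 2 and 4. For the cell suspensions they describe a cut at the proximal level of the next phalanx (P2). The cells can thus come from tissue around P2 as well as from the tip. In the first experiment, lymph nodes were removed on one limb (LNR), and by the study's text the opposite limb of the mouse served as sham. In the second, mice ate chow with the VEGFR3 inhibitor SAR131675 at 30 mg per kg of chow for 8 days, or a matched control chow. VEGFR3 is the growth factor receptor encoded by Flt4 and is best known from lymphatic endothelium. The labels do not give the day after amputation, and the study's text and figure legends give more than 1 day for the single-cell samples. Its methods start the chow before amputation, so that the 8 days of chow do not settle the day. The labels also do not tie the LNR and sham limbs to individual mice. Each condition was 1 library with its own batch number, so batch and treatment cannot be told apart, there is no replicate check, and no p value is given. Intervals are 95% intervals and cover counting error only.

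The outer layer of the hair follicle is continuous with the basal layer of the epidermis, and its regions are known by partly separate marker genes. The bulge holds stem cells, and Cd34, Lgr5 and Lhx2 are among its markers. The junctional zone above it is marked by Lrig1, and the infundibulum opens to the skin surface. Sostdc1 is a secreted antagonist of BMP and Wnt signals, Lrig1 a membrane protein that restrains ErbB receptors, Ntrk2 the receptor for BDNF and neurotrophin 4, Ptprz1 a receptor tyrosine phosphatase that binds pleiotrophin, Lmo1 a nuclear LIM-domain adaptor and Vsnl1 a neuronal calcium sensor. Dorsal digit skin has hair follicles, whereas volar pads and the nail organ do not.

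The libraries differed in depth. The number of UMIs per kept cell had a median of 5725 in LNR, 5851 in sham, 11316 in SAR131675 and 10712 in control. Members were deeper than the other keratinocytes of the LNR and sham libraries, with medians of 8482, 8354, 11582 and 10938 UMIs against 6848.5, 6204, 10926 and 10112 in outer-gene-low cells. From here on, values for all 4 libraries are given in the order LNR, sham, SAR131675 and control. No barcode was shared between members of any 2 libraries, although 101 kept barcodes were shared by LNR and sham and 210 by SAR131675 and control. Levels are given in CPM, the usual scaling of a gene's UMIs by the total UMIs summed over a group of cells. The file headers give different Cell Ranger versions for the experiments, so levels and shares are compared only within an experiment.

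Sostdc1/Lrig1 keratinocytes were found in each library. The LNR library held 386 members, or 8.12% (7.36 to 8.93) of its 4754 noncycling keratinocytes. The sham library held 409 of 5477, or 7.47% (6.79 to 8.20). The SAR131675 library held 1986 of 8629, or 23.0% (22.1 to 23.9), and the control library 1454 of 7089, or 20.5% (19.6 to 21.5). These shares depend on depth. When every cell was thinned to 4000 UMIs before the rule was applied, the shares were 2.86%, 2.53%, 8.59% and 7.95%. Thinning left out 6717, 6868, 3616 and 3920 kept cells that were shallower than this.

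Within each experiment the shares lay close together. The SAR131675 share was higher than the control share by 0.17 on the log2 scale (0.07 to 0.26), and by 0.11 (-0.05 to 0.28) after thinning. The LNR share differed from sham by 0.12 (-0.08 to 0.32), and by 0.18 (-0.20 to 0.56) after thinning. As a share of all kept cells, members made up 1.95%, 1.98%, 6.83% and 6.05%, so that the LNR value lay just under the sham value on that scale.

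The histogram of gate genes per keratinocyte had no gap at the limit of 4. In the LNR library 23.6% of noncycling keratinocytes held none of the 6 genes, 29.5% held 1, 24.9% held 2, 13.8% held 3, 5.81% held 4, 1.89% held 5 and 0.421% held all 6. In the SAR131675 library the corresponding shares were 15.5%, 20.3%, 22.4%, 18.8%, 12.3%, 7.25% and 3.45%. The members were the upper tail of the histogram in all 4 libraries, without a separate mode. Because a gene with few UMIs is missed in many cells, such a histogram cannot tell whether the members form a separate population. All 6 genes were found in 20, 6, 298 and 218 cells.

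**Figure D1:**
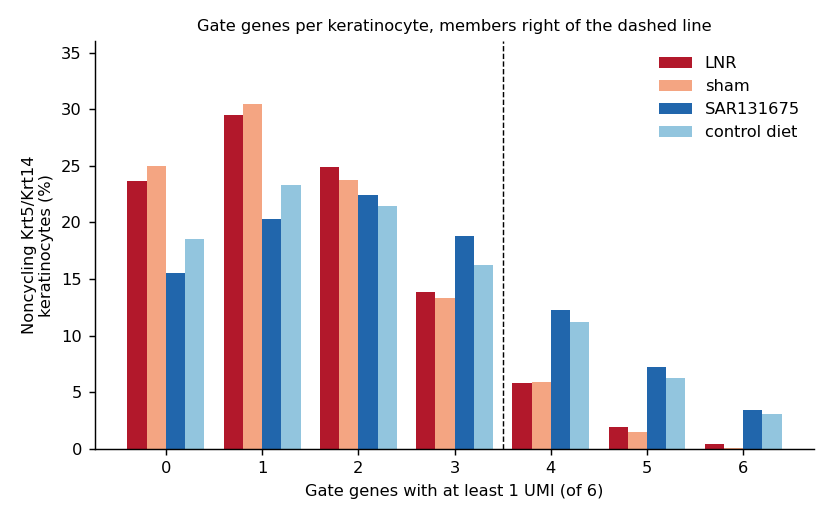
Share of noncycling Krt5/Krt14 keratinocytes (y axis, percent) by the number of gate genes with a UMI (x axis, 0 to 6) in the 4 libraries. Members lie to the right of the dashed line between 3 and 4, and the shares decline across the line without a gap, from 13.8% at 3 genes to 5.81% at 4 in LNR and from 18.8% to 12.3% in SAR131675.

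Cells just outside the limits were set beside those just inside. With 3 gate genes, Sostdc1 was detected in 87.7%, 89.2%, 89.1% and 84.0% of cells, and with 4 in 96.4%, 95.3%, 95.5% and 94.3%. Ptprz1 went from 13.9%, 15.3%, 22.2% and 26.5% to 31.2%, 31.1%, 37.4% and 44.6%. Averaged over the gate genes, detection has to be higher with 4 of them than with 3, so these rises are a description only. Between 0.4% and 0.5% keratin, 24, 19, 157 and 85 cells held 4 or more gate genes and were left out, against 31, 28, 165 and 98 members between 0.5% and 0.6%. Cells with 4 or more gate genes and exactly 3 genes of dividing cells numbered 18, 15, 88 and 64 and were members, and those with exactly 4 numbered 7, 15, 61 and 21 and were not.

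The 6 genes were not equally frequent in the members, and their values are a description because they chose the cells. Sostdc1 (ENSMUSG00000036169) was detected in 96.9%, 95.8%, 97.2% and 96.6% of members, at 379, 363, 810 and 749 CPM. Lmo1 (ENSMUSG00000036111) was detected in 96.6%, 97.1%, 90.0% and 91.3%, at 357, 369, 213 and 238 CPM. These were the most widely detected pair of genes in each library. Ntrk2 (ENSMUSG00000055254) was detected in 79.5%, 80.9%, 79.2% and 80.1% of members, at 146, 156, 235 and 228 CPM. Lrig1 (ENSMUSG00000030029) was detected in 58.5%, 59.7%, 76.0% and 75.5%, at 84.3, 81.5, 209 and 211 CPM. Ntrk2 and Lrig1 thus stood between the leading pair and the remaining genes. Vsnl1 (ENSMUSG00000054459) was detected in 58.3%, 51.3%, 63.0% and 55.7%, at 73.0, 66.0, 101 and 88.7 CPM. Ptprz1 (ENSMUSG00000068748) was detected in 43.8%, 37.9%, 56.1% and 61.1%, at 54.3, 48.2, 106 and 119 CPM. Vsnl1 and Ptprz1 were detected least often in each library.

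Free RNA in droplets can give UMIs in cells that do not express a gene, so the same genes were read in cells that held 3 or more of 6 endothelial markers and under 0.5% keratin. These cells numbered 897, 883, 919 and 792 and had median depths of 4543, 4545, 8514 and 7698.5 UMIs. Sostdc1 was found in 4.01%, 4.98%, 4.35% and 2.78% of them, Vsnl1 in 1.11%, 0.566%, 0.762% and 0.379%, and Ptprz1 in 0.780%, 0.679%, 0.762% and 1.26%. The shares in members are no check on free RNA, since the rule itself asked for UMIs of these genes. In endothelial-marker cells Lmo1 and Ntrk2 were found more often than Sostdc1 in each library. Lrig1 was found less often than Sostdc1 in sham, about as often in LNR and more often in the diet libraries. Lmo1 was found in 28.7%, 29.4%, 31.9% and 28.0% of endothelial-marker cells, Ntrk2 in 12.0%, 16.4%, 8.38% and 7.70%, and Lrig1 in 4.35%, 3.17%, 11.4% and 12.4%. In cells with immune markers, chosen in the same way, Lmo1 was found in 11.5%, 18.1%, 12.8% and 10.3%. In outer-gene-low keratinocytes Lmo1 was detected in 21.7%, 22.2%, 15.1% and 15.1%, between these references, and no reading is given to that share.

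The genes were combined in many ways. Over all members, 683 (16.1%) held Sostdc1, Lmo1, Lrig1 and Ntrk2 alone among the 6, and 542 (12.8%) held all 6, but these totals are mostly cells of the deeper diet libraries. By library, Sostdc1, Lmo1, Lrig1 and Ntrk2 were the combination of 17.9%, 24.0%, 14.5% and 15.7% of members. All 6 genes were found in 5.18%, 1.47%, 15.0% and 15.0%. The first of these was the most frequent combination in LNR, sham and control, and all 6 genes were the most frequent in SAR131675.

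Comparison with outer-gene-low keratinocytes asked what else these cells carried. The contrast is a description without a test, since the rule read genes of the same cells, and a log2 ratio was taken with 10 CPM added to both levels. Of 8761 genes tested, 31 (0.354%) were at least 2-fold higher in members in 4 of 4 libraries, of which 6 were the gate genes, and 15 (0.171%) were at least 2-fold lower. After thinning to 4000 UMIs and applying the rule again, 24 of the 31 and 14 of the 15 were still past 2-fold in every library. The 24 include the 6 gate genes, which the rule set high again in the thinned cells. The median over all genes tested was -0.02, -0.03, -0.01 and -0.01.

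The chemokine gene Ccl27a led the genes outside the rule. CCL27 is a skin chemokine made by keratinocytes that attracts T cells carrying CCR10. Its level in members was 494, 586, 189 and 191 CPM, against 54.9, 64.9, 11.1 and 8.91 CPM in outer-gene-low cells, log2 ratios of 2.96, 2.99, 3.24 and 3.41. A UMI of Ccl27a was found in 75.4%, 76.0%, 49.6% and 52.5% of members. The ratio was as large as those of the genes that chose the cells, which lay between 2.24 and 3.43.

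Among the higher genes were single enzymes of aldehyde, alcohol and glutathione metabolism, and no list of such genes was counted. Aldh3a1, an aldehyde dehydrogenase known from cornea and other surface epithelia, stood at 419, 416, 300 and 419 CPM in members and at 102, 101, 60.9 and 88.3 CPM in outer-gene-low cells. Adh7, an alcohol dehydrogenase that also oxidizes retinol, stood at 372, 382, 468 and 451 CPM, with a smallest log2 ratio of 1.32. Gstm5, a glutathione transferase, stood at 341, 340, 120 and 134 CPM, log2 ratios of 1.67, 1.48, 1.45 and 1.61. Its paralog Gstm1 had log2 ratios of 1.13, 1.17, 1.08 and 1.11. After thinning, Gstm5 (0.98 in sham) and Gstm1 (0.84 in LNR and 0.82 in sham) were no longer past 2-fold in every library, and reads of these related genes may be hard to separate. Stra6, the membrane receptor for retinol-binding protein, had log2 ratios of 1.64, 1.68, 1.17 and 1.41. Ahr, the aryl hydrocarbon receptor, had ratios of 1.43, 1.40, 1.14 and 1.31, and Vdr, the vitamin D receptor, of 1.14, 1.08, 1.30 and 1.37.

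Other higher genes encode secreted, membrane and nuclear proteins. Fst, the secreted activin and BMP antagonist follistatin, stood at 163, 175, 108 and 119 CPM in members and at 35.4, 41.5, 18.4 and 20.7 CPM in outer-gene-low cells. Apcdd1, a membrane inhibitor of Wnt signaling, stood at 73.7, 68.5, 68.4 and 80.7 CPM against 17.2, 14.7, 16.2 and 16.3 CPM. The latrophilin Adgrl2, an adhesion G protein-coupled receptor, stood at 189, 188, 479 and 526 CPM, log2 ratios of 1.80, 1.76, 2.08 and 2.31. Its relative Adgrl3 had ratios of 1.35, 1.34, 2.67 and 2.65. Gata6, a transcription factor of the upper follicle and sebaceous duct, had ratios of 1.37, 1.27, 1.10 and 1.22 but 0.58 in LNR after thinning, and Egr2 of 1.59, 1.22, 1.43 and 1.40. Dpysl3, Clca3a2, Sult5a1, C1qtnf12 and Lgals9 were the other genes among the 20 leading ones, with smallest log2 ratios over the libraries of 1.72, 1.62, 1.29, 1.29 and 1.19.

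The lower genes included a keratin gene, Krt2. Ndufa4l2, a mitochondrial protein induced in hypoxia, had log2 ratios of -2.27, -1.93, -2.81 and -2.43 and stood at 176, 193, 235 and 190 CPM in outer-gene-low cells. Igfbp3, a binding protein of insulin-like growth factors, stood at 19.7, 8.63, 37.4 and 27.8 CPM, log2 ratios of -1.81, -2.48, -2.60 and -2.58. Krt2, a keratin of differentiating epidermis that is abundant in tail and footpad skin, stood at 284, 275, 202 and 152 CPM in members against 1111, 964, 1271 and 1398 CPM. Mt4, a metallothionein of stratified epithelium, had log2 ratios of -1.73, -1.75, -2.17 and -2.48. Fabp5, a fatty acid binding protein of the epidermis, had ratios of -1.79, -2.05, -1.53 and -1.81. Serpinb7, Psapl1, Igfbp2, Gdpd2 and Spink5 completed the 10 lowest, with largest log2 ratios of -1.59, -1.48, -1.28, -1.25 and -1.17. The share of cells with a UMI was lower in members for these 10 genes, except for Psapl1 in sham and Spink5 in LNR. For some the shares lay close together. Spink5 was detected in 18.4%, 15.6%, 19.5% and 18.9% of members and in 15.0%, 16.6%, 21.5% and 19.1% of outer-gene-low cells. Ndufa4l2 was detected in 13.5%, 16.1%, 13.2% and 14.9% against 41.8%, 43.1%, 51.9% and 46.5%.

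**Figure D2:**
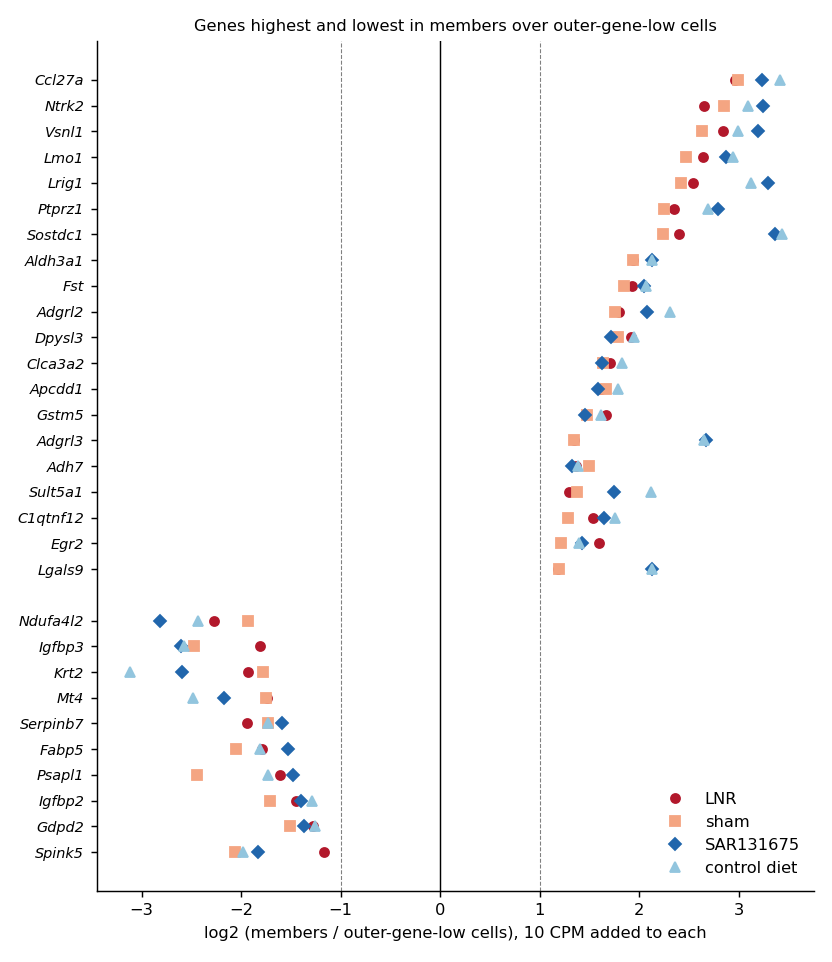
Log2 ratio of the level in members over that in outer-gene-low keratinocytes (x axis, 10 CPM added) for the 20 highest and 10 lowest genes (y axis), 1 point per library, with dashed lines at -1 and 1. The 4 points of each gene lie on the same side, from 2.96 to 3.41 for Ccl27a and from -2.81 to -1.93 for Ndufa4l2.

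Several of these genes were higher or lower with each further gate gene over most of the range. Ccl27a stood at 34.9, 70.0, 170, 320, 449, 613 and 528 CPM in LNR cells with 0 to 6 gate genes, and at 6.89, 10.2, 27.5, 58.7, 137, 239 and 290 CPM in control cells. Adgrl2 went from 82.5 to 630 CPM in SAR131675 and from 80.2 to 700 CPM in control. Ptn, the pleiotrophin ligand of Ptprz1, went from 234 to 588 CPM in LNR and from 171 to 600 CPM in control. The lower genes went the other way: Ndufa4l2 went from 292 CPM with no gate gene to 10.3 CPM with 6 in SAR131675, and Igfbp3 from 326 to 8.10 CPM. These values share the cells that the rule sorted, and the depth per cell also differs along the axis.

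Lhx2 and Cxcl14 had their highest levels in the middle of the range. Lhx2, a transcription factor of bulge and hair germ cells, stood at 31.0, 71.8, 97.9, 75.4, 30.8, 29.6 and 8.58 CPM in LNR cells with 0 to 6 gate genes, and at 8.59, 42.4, 101, 98.5, 78.8, 34.4 and 11.3 CPM in SAR131675 cells. The chemokine gene Cxcl14 stood at 315, 506, 742, 567, 253, 246 and 172 CPM in LNR and at 116, 374, 699, 781, 687, 348 and 151 CPM in SAR131675. Both genes were highest in cells with 2 or 3 gate genes, which the rule left out, and were lowest or nearly so in cells with all 6.

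**Figure D3:**
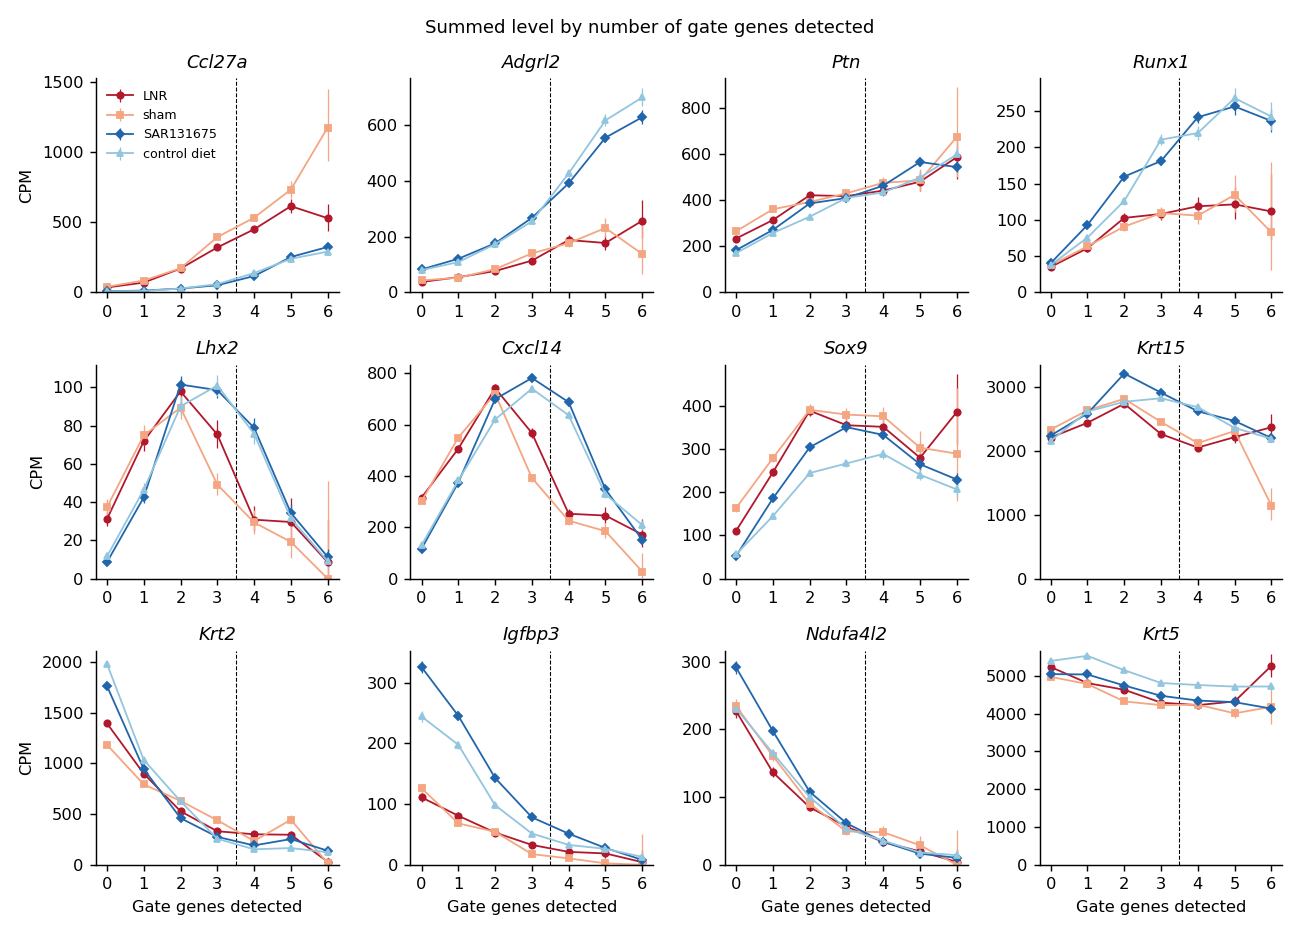
Level (y axis, CPM, with 95% Poisson intervals for counting error) by number of gate genes with a UMI (x axis, 0 to 6) for 12 genes in the 4 libraries, members to the right of the dashed line. Ccl27a and Adgrl2 are higher toward 6, Igfbp3 and Ndufa4l2 are lower, and Lhx2 and Cxcl14 are highest at 2 or 3 gate genes.

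Marker lists of follicle regions gave a mixed answer to the name outer follicle keratinocytes. Of 21 bulge and outer root sheath genes tested, 1 (Fst) was past 2-fold in all 4 libraries, and the median log2 ratio of the list was 0.02, -0.02, 0.75 and 0.69. Runx1, a transcription factor active in follicle stem cells, stood at 119, 111, 245 and 238 CPM, log2 ratios of 1.11, 0.97, 1.64 and 1.80. Barx2 had ratios of 1.15, 0.94, 1.53 and 1.54, Nfatc1 of 1.05, 0.74, 1.11 and 1.16, and Sox9, a regulator of outer root sheath cells, of 0.81, 0.63, 1.11 and 1.17. These 4 transcription factors were above 0 in each library.

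The classical bulge genes were not above 0 in each library. Cd34 had log2 ratios of -0.57, -0.55, 0.18 and 0.20, with a UMI in 9.59%, 9.54%, 8.16% and 7.84% of members. Lgr5 stood at 10.3, 13.5, 83.0 and 76.1 CPM and was detected in 6.22%, 6.36%, 15.7% and 13.3% of members. Lhx2 was detected in 11.1%, 10.5%, 16.6% and 14.3%. Each of these 3 genes was thus without a UMI in most members. Their directions in the diet libraries turned when cells were thinned to 4000 UMIs and the rule was applied again. The log2 ratios were then -0.06, -0.78, -0.86 and -0.08 for Cd34, -0.14, -0.55, -0.75 and -0.37 for Lgr5 and -0.40, -0.03, -0.61 and -0.61 for Lhx2. Krt15, a basal keratin that is high in the bulge, had ratios of -0.15, -0.22, 0.04 and 0.04, and Krt24 of -1.19, -0.70, -0.90 and -0.90. Because the markers point to different follicle regions and most members carried few of them, the cells are called by their genes and not by a follicle position.

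In the junctional zone and isthmus list, 2 of 6 genes tested, Lrig1 and Gata6, were past 2-fold in all libraries. Lrig1 was a gate gene, and Gata6 was not past 2-fold in LNR after thinning. Lgr6, another stem cell marker of this region, had log2 ratios of -0.78, -0.83, -1.18 and -1.07. Of 8 infundibulum genes none was past 2-fold in all 4 libraries in either direction. Krt79, a keratin of the upper follicle and sebaceous duct, stood at 776, 584, 213 and 218 CPM in members, in only 23.8%, 22.7%, 17.9% and 13.2% of them. None of 15 interfollicular basal genes and none of 7 suprabasal genes was past 2-fold in all 4 libraries. The basal list had medians of -0.21, -0.21, -0.10 and -0.07 and the suprabasal list of -0.73, -0.73, -0.76 and -0.93, with Krt10 at -0.79, -0.59, -1.59 and -1.61.

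To describe the mixture, members were sorted by 2 sets of 4 genes that were picked after values had been seen. The Krt79 set (a UMI in 2 or more of Krt79, Defb6, Gata6 and Plet1) was held by 26.9%, 25.9%, 19.8% and 16.8% of members. The Lgr5 set (2 or more of Cd34, Lgr5, Lhx2 and Cxcl14) was held by 14.2%, 11.5%, 18.7% and 16.1%. Both sets were held by 4.40%, 2.44%, 2.47% and 1.72%, where the products of the separate shares were 3.84%, 2.98%, 3.72% and 2.71%. The remaining 63.2%, 65.0%, 63.9% and 68.8% of members held neither set. In outer-gene-low cells the Krt79 set was held by 7.24%, 9.09%, 7.54% and 4.62% and the Lgr5 set by 22.3%, 23.0%, 12.7% and 11.5%. These shares depend on depth: in thinned members the Krt79 set was held by 10.0%, 13.3%, 9.09% and 7.71% and the Lgr5 set by 7.50%, 9.17%, 7.58% and 9.25%. In thinned outer-gene-low cells the Krt79 set was held by between 3.93% and 10.3% and the Lgr5 set by 10.2%, 11.6%, 13.8% and 11.3%. The Lgr5 set thus went from more frequent to less frequent in members than in outer-gene-low cells in both diet libraries. Depth and the choice of cells changed together in this step, and their parts were not tested.

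Members with only the Krt79 set (87, 96, 345 and 220 cells) were compared with those with only the Lgr5 set (38, 37, 323 and 209 cells). Examples are given without a count over all genes, and the depth of these groups was not compared. Cst6, which encodes the protease inhibitor cystatin E/M, had log2 ratios of Krt79-set over Lgr5-set members of 6.32, 6.05, 3.87 and 5.18. Clca3a2 had ratios of 3.46, 3.88, 3.74 and 4.10. Ccl27a stood at 608, 714, 276 and 280 CPM in Krt79-set members and at 192, 245, 53.4 and 48.7 CPM in Lgr5-set members. Ccl27a, Aldh3a1 and Apcdd1 were thus higher on the Krt79 side in each library, with ratios of 1.62, 1.51, 2.17 and 2.31 for Ccl27a, of 1.41, 1.67, 2.09 and 2.03 for Aldh3a1 and of 1.30, 1.21, 1.77 and 1.68 for Apcdd1.

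Other genes were lower in Krt79-set members. The secreted Wnt antagonist gene Sfrp1 stood at 22.6, 19.4, 67.8 and 54.7 CPM in Krt79-set members and at 293, 223, 712 and 605 CPM in Lgr5-set members. Tnc, the matrix protein tenascin C and a ligand of Ptprz1, had log2 ratios of -2.97, -3.02, -4.31 and -4.32. Id2 had ratios of -2.97, -3.40, -2.78 and -3.48, Dkk3 of -2.13, -2.33, -2.38 and -2.28, and Tcf7l1, a transcription factor of follicle stem cells, of -1.42, -1.38, -1.95 and -2.28. Bdnf, a ligand of Ntrk2, had ratios of -1.92, -1.93, -2.54 and -2.22. Sparc, S100a4, Crip1 and Igfbp7 were also lower in Krt79-set members, with Sparc at 159, 110, 73.6 and 53.3 CPM against 757, 1513, 637 and 604 CPM. Members that held fibroblast markers were not left out of either group, and their part in these ratios was not tested.

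The gate genes had log2 ratios between -0.32 and 1.21 on the same scale. Because these genes chose the members, their levels in subsets of the members are a description only. Sostdc1 had log2 ratios of Krt79-set over Lgr5-set members of -0.11, -0.27, 0.10 and -0.13, and Ptprz1 of -0.09, -0.32, 0.26 and -0.02. Lrig1 had ratios of 0.34, 0.10, 1.21 and 0.99, Lmo1 of 0.72, 0.38, 0.66 and 0.39 and Vsnl1 of 0.14, 0.48, 0.30 and 0.14. These values were above 0, some by little, and have no intervals. The Lgr5-set groups of LNR and sham held only 38 and 37 cells, so a common direction is not shown. Members with neither set had the highest levels of 3 of the gate genes: Ntrk2 stood at 186, 192, 283 and 268 CPM, Ptprz1 at 73.9, 60.6, 126 and 138 CPM and Vsnl1 at 84.1, 77.0, 113 and 96.5 CPM, above their levels in both of the other groups in each library. Ntrk2 stood at 99.9, 105, 188 and 178 CPM in Krt79-set members and at 123, 126, 127 and 119 CPM in Lgr5-set members.

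**Figure D4:**
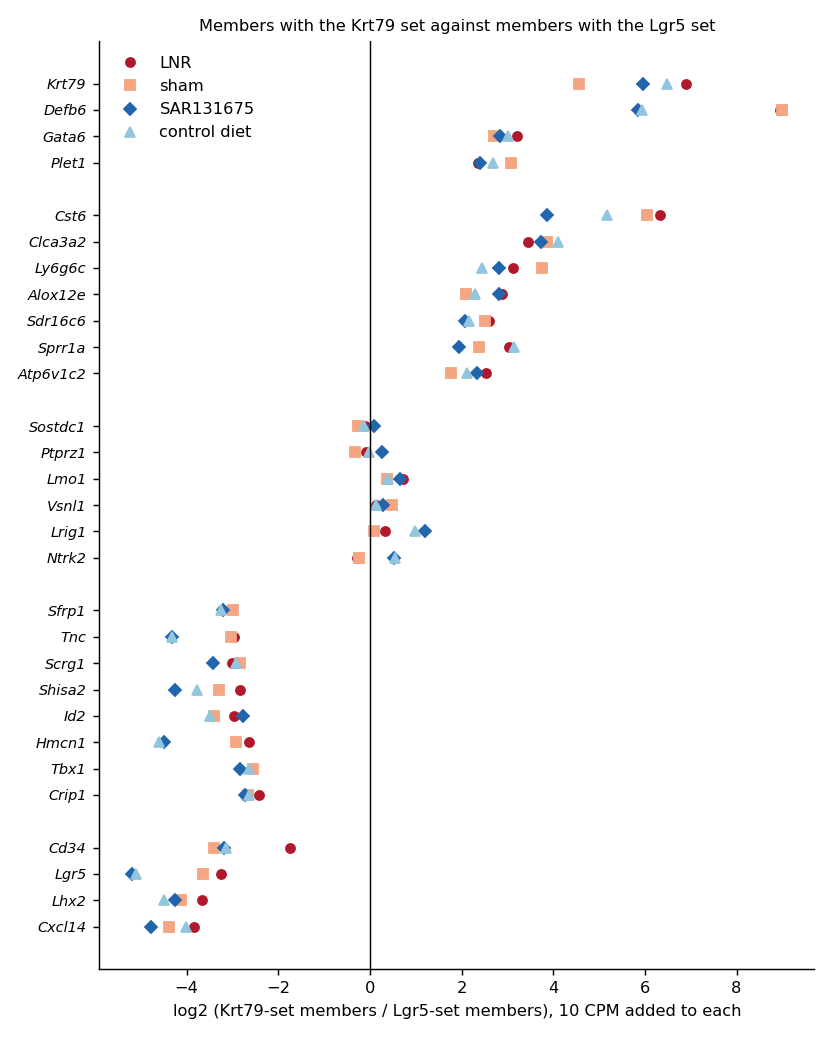
Log2 ratio of the level in members with only the Krt79 set over members with only the Lgr5 set (x axis, 10 CPM added), by gene (y axis), 1 point per library. Cst6 and Clca3a2 lie far to the right (3.46 to 6.32), Sfrp1 and Tnc far to the left (-4.32 to -2.97), and Sostdc1 near 0.

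Pathway lists were read around each gate gene, as the number of genes past 2-fold in 4 of 4 libraries. Over all genes tested 0.354% were higher and 0.171% lower. The rule itself set the gate genes high in members, so their place in a count is no result. Around Sostdc1, 2 of 7 BMP antagonists tested were higher (Fst and the gate gene Sostdc1). None of 3 BMP ligands, 4 BMP receptors and 4 BMP target genes was past 2-fold. The BMP target list had medians of -0.56, -0.45, -0.49 and -0.46, with Id3 at 194, 182, 173 and 134 CPM in members against 350, 322, 275 and 213 CPM in outer-gene-low cells. The list median of these targets was below 0 in every library. Among Wnt genes, 1 of 7 antagonists (the gate gene Sostdc1), 1 of 4 targets (Apcdd1), none of 6 ligands and none of 14 receptors was past 2-fold. Wnt4, a ligand, stood at 181, 179, 225 and 246 CPM against 232, 242, 316 and 342 CPM. Axin2, a general Wnt target, had log2 ratios of 0.24, 0.20, -0.18 and -0.14.

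Around Lrig1, none of the other 6 ErbB receptors and inhibitors tested was past 2-fold. Its relative Lrig3 had log2 ratios of 0.49, 0.24, 0.33 and 0.44, and Egfr of -0.02, -0.03, 0.11 and 0.20. Around Ntrk2, none of the other 3 neurotrophin genes tested was past 2-fold, with Ntf5, which encodes neurotrophin 4, at 12.8, 12.2, 19.3 and 19.4 CPM and Bdnf at 8.35, 8.12, 17.2 and 20.2 CPM. Around Ptprz1, none of 3 ligand genes tested was past 2-fold in all libraries. Ptn came nearest, at 460, 482, 508 and 479 CPM against 280, 319, 236 and 225 CPM, and was detected in 90.4%, 91.4%, 90.9% and 91.3% of members.

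Around Lmo1 the partner gene Ldb1 had log2 ratios of 0.12, 0.10, -0.07 and -0.08 and the related Lmo4 of -0.46, -0.52, -0.09 and -0.14. Of 5 genes tested only the gate gene Lmo1 was past 2-fold, and of 3 calcium sensors tested only the gate gene Vsnl1. None of 8 Notch genes was past 2-fold, although the ligand Jag1 had ratios of 0.89, 0.78, 0.57 and 0.65. None of 8 immediate early genes, which respond to handling and stress, was past 2-fold, with medians of 0.29, 0.34, 0.34 and 0.30.

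Markers of other cell types were found in some members. A UMI of 3 or more of 6 fibroblast markers (Col1a1, Col1a2, Col3a1, Lum, Dcn and Pdgfra) was held by 9.33%, 9.05%, 3.32% and 2.41% of members and by 8.43%, 7.90%, 4.56% and 2.80% of outer-gene-low cells. Summed levels of the list in members were 1189.5, 1558.5, 247 and 232 CPM, and none of its genes was at 0. Markers of immune cells reached 3 of 6 in 3.63%, 2.93%, 0.755% and 0.413% of members, and those of endothelial cells in 1.55%, 2.20%, 0.201% and 0.206%. At least 3 of 8 sebaceous gland genes were held by 23.6%, 17.6%, 27.1% and 22.9% of members against 10.4%, 9.81%, 17.4% and 13.0% of outer-gene-low cells. The summed level of the list went the other way, at 322, 410, 299 and 337 CPM in members against 547, 755, 312 and 358 CPM. Among those genes Mgst1, a widely expressed transferase, was detected in 54.7%, 53.8%, 52.5% and 49.9% of members. Their part in the members' other values was not tested except where a value without fibroblast-marker members is given.

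Dividing cells had been removed by the rule, so the share of keratinocytes with 4 or more genes of dividing cells was counted before that step. With 4 to 6 gate genes it was 22.2%, 21.0%, 13.1% and 10.9%, and with 0 or 1 gate genes 17.6%, 19.3%, 16.6% and 13.9%. After thinning to 4000 UMIs it was 9.09%, 5.51%, 6.08% and 6.49% against 17.5%, 20.2%, 13.5% and 12.6%. The order of these groups in LNR and sham thus turned with thinning, which also changed the cells in them, and no direction is given.

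SAR131675 chow was compared with control chow to ask how the members' transcripts differed with the VEGFR3 inhibitor. Each comparison sets 1 library against 1. Of 11776 genes with at least 100 UMIs in members of the pair, 47 (0.399%) were at least 2-fold higher with SAR131675 and 39 (0.331%) at least 2-fold lower. The counting interval lay above 0 for 1743 genes (14.8%) and below 0 for 3318 (28.2%), and the median log2 ratio was -0.06. For LNR against sham, 23 of 6825 genes (0.337%) were at least 2-fold higher and 14 (0.205%) at least 2-fold lower, with intervals above 0 for 411 genes (6.02%) and below 0 for 288 (4.22%) and a median of 0.01.

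The gate genes are given as a description, since their detection, or for Krt5 and Krt14 their level, chose the cells in each library. In SAR131675 members Sostdc1 differed from control by 0.11 (0.08 to 0.15) on the log2 scale, Vsnl1 by 0.19 (0.10 to 0.29), Ntrk2 by 0.04 (-0.02 to 0.10), Lrig1 by -0.01 (-0.07 to 0.05), Lmo1 by -0.15 (-0.21 to -0.09) and Ptprz1 by -0.17 (-0.26 to -0.09). In LNR members the values were 0.06 (-0.05 to 0.16) for Sostdc1, 0.14 (-0.10 to 0.39) for Vsnl1, -0.09 (-0.26 to 0.07) for Ntrk2, 0.05 (-0.18 to 0.27) for Lrig1, -0.05 (-0.16 to 0.05) for Lmo1 and 0.17 (-0.12 to 0.46) for Ptprz1. None was past 2-fold in either pair. Krt5 differed by -0.14 in the diet pair and by 0.04 in the lymph node pair, and Krt14 by -0.07 in both.

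The largest ratios rested on few cells. Krt42, a keratin of the nail unit, had 1749 UMIs in 50 of 1986 SAR131675 members and 28 UMIs in 19 of 1454 control members, a log2 ratio of 5.44 (4.91 to 6.04). Spink6, Rgs16, Spink12 and Wfdc18 followed with 4.09, 3.71, 2.71 and 2.42, and each was detected in 109 or fewer of the 1986 SAR131675 members. Spink12 went the other way in the lymph node pair, at -4.42, where 10 sham members held its 683 UMIs. Among the lower genes, Col10a1, a collagen of hypertrophic cartilage, had a ratio of -5.50, but 209 of its 220 control UMIs were in 1 cell, and without the highest cell of each library the ratio was -1.40 (-3.12 to 0.16). Cytl1 had 637 of 690 control UMIs in 1 cell, with a ratio of -4.82 and of -1.21 without it, and Msmp (-6.60) had 115 of 135. Ecrg4 (-2.69) and Mrc1 (-2.57), a macrophage gene, were detected in 19 or fewer members of either diet library.

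The same held for LNR against sham. The T cell chemokine gene Ccl5 had a log2 ratio of 4.32, with 103 UMIs in 2 LNR members. Has1, a hyaluronan synthase, had a ratio of 2.82, and of -0.44 (-2.25 to 1.28) without members that held fibroblast markers. Klk10 and Cxcl2 had ratios of 2.79 and 2.19. Ccer2 had a ratio of -7.96, with 480 of 481 sham UMIs in 1 cell, Cytl1 of -4.93 and Fxyd2 of -3.37, with 155 of 170 in 1 cell. The neutrophil gene S100a8 had a ratio of -2.42 with 628 of 663 sham UMIs in 1 cell, and of 1.03 without the highest cells, so its direction turned. None of these large ratios describes most members.

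**Figure D5:**
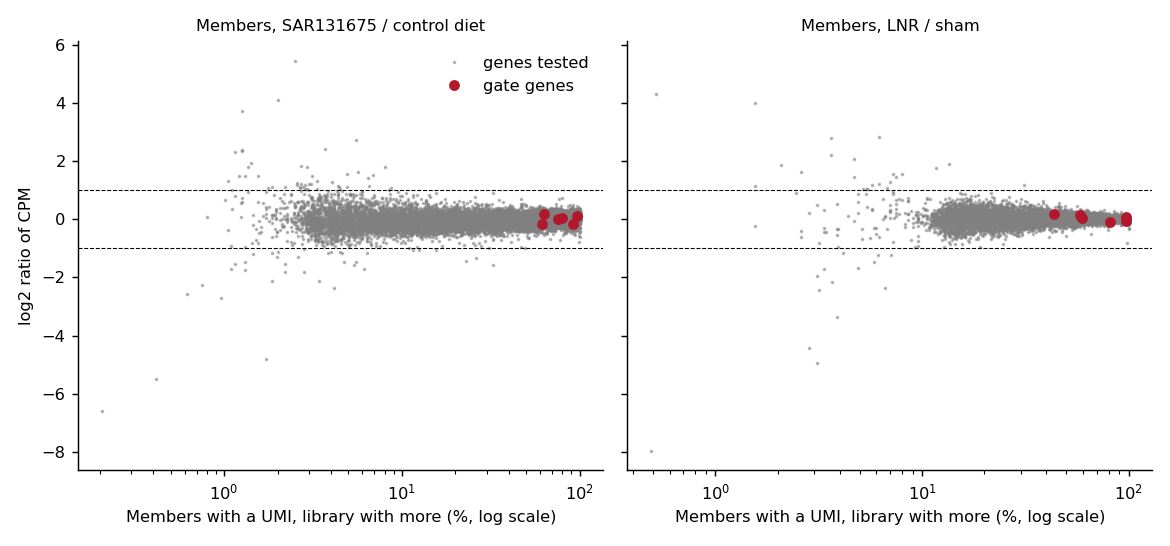
Log2 ratio of CPM in members (y axis) against the percent of members with a UMI in the library where more had one (x axis, log scale), SAR131675 over control and LNR over sham, 1 point per gene, gate genes in red, dashed lines at -1 and 1. Large ratios lie at low detection, as Krt42 (5.44, in 2.52% of SAR131675 members), and the gate genes, which chose the cells, lie near 0.

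Restricting the comparison to genes with a UMI in at least 5% of members in both libraries, a filter chosen after values had been seen, left few genes past 2-fold. For the diet pair these were 1 of 10208 genes higher (0.0098%) and 8 lower (0.0784%). Gpx2, a glutathione peroxidase of epithelia, was the higher one, in 8.66% of members with SAR131675 and 5.16% in control, a log2 ratio of 1.06 (0.81 to 1.30). The lower genes included Gm17167 (-1.59), Elovl4 (-1.42), 4930578G10Rik (-1.34), Spock2 (-1.07), Ttll11 (-1.04), Per1 and Tbx3os1, the last pair just past 2-fold. Elovl4, an elongase for very long chain fatty acids of the skin barrier, was detected in more members with SAR131675 (22.8%) than in control (14.4%) although its level was lower, at 33.2 against 89.1 CPM.

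Per1 is a gene of the circadian clock. It stood at 17.0 CPM in 17.8% of SAR131675 members and at 34.2 CPM in 30.8% of control members, with an interval of the log2 ratio from -1.19 to -0.82. Zbtb16, a transcription factor gene, was just short of 2-fold at 42.0 against 83.9 CPM. Fkbp5, a cochaperone of steroid receptors and well known target of glucocorticoids, stood at 18.1 CPM in 15.5% of members against 33.3 CPM in 25.8%, a log2 ratio of -0.88 (-1.06 to -0.70). In outer-gene-low keratinocytes the ratios were -0.92 for Per1, -0.79 for Zbtb16 and -0.88 for Fkbp5, so these genes were lower in both groups of keratinocytes. Fkbp5 was also among the 5 genes lowest in both pairs, at 9.83 CPM after LNR against 16.8 CPM after sham, a ratio of -0.77 (-1.37 to -0.18), with 0.00 in outer-gene-low cells of that pair. The ratio in LNR over sham members was -0.05 (-0.38 to 0.29) for Per1 and -0.20 (-0.88 to 0.48) for Zbtb16.

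For LNR against sham, 7 of 6763 widely detected genes were higher (0.104%) and 2 lower (0.0296%). Mgp, the matrix Gla protein of connective tissue and cartilage, had 485 CPM in members after LNR against 130 CPM after sham, a log2 ratio of 1.90. Pinlyp (1.76), Sprr1a (1.54), Mfap5 (1.44), Acta2 (1.19), Igfbp3 (1.19) and Prg4 (1.18) were the others. In outer-gene-low cells the ratios were 0.61 for Acta2, 0.55 for Mfap5, 0.16 for Mgp, 0.09 for Pinlyp, 0.00082 for Igfbp3, -0.40 for Prg4 and -1.25 for Sprr1a. The shares of LNR and sham members with a UMI were 12.4% and 13.4% for Mgp, 7.25% and 7.09% for Sprr1a and 31.1% and 31.3% for Prg4. Mgp, Mfap5, Acta2 and Prg4 are best known from connective tissue, smooth muscle and joint lining, and 36 LNR and 37 sham members held 3 or more fibroblast markers. The lower genes were Wfdc21 (-1.25) and Comp (-1.22), a cartilage matrix gene whose ratio was 0.35 (-0.95 to 1.70) without those members.

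Across both pairs, 6804 genes were tested in each. In the same direction past 2-fold were 2 higher genes, of 14 in the diet pair and 15 in the lymph node pair, and 4 lower genes, of 17 and 10. The 2 higher genes were Pinlyp, with log2 ratios of 1.51 and 1.76, and Acta2, with 1.63 and 1.19. Without fibroblast-marker members the ratio of Acta2 was 0.25 in the diet pair and 1.57 in the lymph node pair. Without the highest cell of each library the ratio of Pinlyp was 0.87 and 0.83. Sparcl1, Myl9 and Fgl2 were next, with 1.30 and 0.74, 0.71 and 0.85, and 1.49 and 0.68, and without fibroblast-marker members Fgl2 stood at -0.17 and -0.51. In the diet pair that step left Sparcl1 at 0.47 (-0.17 to 1.13) and Myl9 at 0.22 (-0.38 to 0.84), and in the lymph node pair at 0.94 (0.43 to 1.48) and 1.41 (0.80 to 2.06). The 4 lower genes were Cytl1, Ecrg4, Angptl7 and Comp. Ecrg4 had 405 of its 440 sham UMIs in 1 cell, and without the highest cells its ratio in the lymph node pair went from -1.72 to -0.13 (-0.86 to 0.60). Comp stood at 0.71 (-0.11 to 1.60) in the diet pair without fibroblast-marker members, where it had been -1.82. Angptl7 had ratios of -1.47 in both pairs, with a UMI in 3.78% and 4.75% of SAR131675 and control members and in 3.11% and 5.87% of LNR and sham members. Without fibroblast-marker members its ratio in the lymph node pair was -0.97 (-2.02 to 0.0095).

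Gene lists were counted by intervals off 0, beside 14.8% of all genes above and 28.2% below in the diet pair. Intervals are narrower for genes with more UMIs, and all genes were not matched to the lists by level. The counts are thus a description and no sign of enrichment. In the diet pair 11 of 15 interfollicular basal genes had intervals below 0 in members, Krt5 and Krt14 of the rule among them, with a list median of -0.14 against -0.06 over all genes, led by Dst (-0.47), Itgb4 (-0.43) and Itga3 (-0.41), whose products anchor basal cells to the basement membrane. The same genes had ratios of -0.46, -0.42 and -0.50 in outer-gene-low cells. All 6 volar and nail genes had intervals above 0, with a median of 1.03, and 3 of them (Krt9, Krt42 and Spink12) were past 2-fold, each with a UMI in 5.49% of SAR131675 members or fewer. In outer-gene-low cells the ratios were 2.25 for Krt42, 0.15 for Krt6a, 0.08 for Krt9, -0.03 for Krt17, -0.14 for Krt2 and -0.66 for Spink12. In the lymph node pair 2 of 4 genes of the list tested, Krt6a (-0.45) and Spink12 (-4.42), had intervals below 0, and 1, Krt17 (0.57), above 0. The wound keratin genes Krt6a and Krt17 of that list stood at 209 against 113 CPM and at 527 against 323 CPM in SAR131675 and control members. Of 5 BMP targets tested 4 had intervals above 0, with a median of 0.37, and Id1 and Id3 had the same direction in outer-gene-low cells, at 0.46 and 0.37. Of 6 Wnt targets 5 had intervals below 0, with a median of -0.25, Apcdd1 at 68.4 against 80.7 CPM and Axin2 at 20.5 against 24.5 CPM. In the lymph node pair none of 4 BMP targets and none of 3 Wnt targets tested had an interval off 0. Their medians there were -0.00028 and 0.10.

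In the lymph node pair 7 of 8 infundibulum genes had intervals above 0 in members, with a list median of 0.41. Over all genes, again not matched by level, 6.02% were above and 4.22% below. Cst6 had a log2 ratio of 0.63 (0.58 to 0.67), Krt17 of 0.57 (0.49 to 0.65) and Krt79 of 0.41 (0.33 to 0.49), while the same genes had ratios of -0.62, -0.38 and -0.53 in outer-gene-low cells. The shares of members with a UMI were 38.3% against 36.7% for Cst6 and 23.8% against 22.7% for Krt79. In the diet pair 2 of the 8 genes had intervals above 0 and 3 below. Of the bulge and outer root sheath genes, 6 of 21 had intervals above 0 and 5 below in the diet pair, and 2 of 20 above and 1 below in the lymph node pair, and none was past 2-fold.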

How the data were processed

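Droplet single-cell RNA sequencing was done on 4 libraries, 1 per condition. The authors deposited whole-number UMI counts per gene and barcode made with Cell Ranger, and no normalized values were used. File headers name version 6.1.2 for the LNR and sham libraries and 8.0.1 for the diet libraries, while the submitters' processing notes give 6.1.2 and the GRCm39 build. Whether intronic reads were counted, as later versions do by default, is not given in the sources used here. The study's later normalization and integration of cells were not repeated.

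From the counts of 33696 genes, barcodes with 200 to 5500 detected genes, at most 30000 UMIs and at most 10% mitochondrial UMIs were kept. These limits come from the study's methods for the lymph node data and were applied to all libraries. Total counts per library ranged from 168507188 to 585284877 UMIs. UMIs were summed over the cells of a group and scaled to CPM, and log2 ratios between members and outer-gene-low cells used a pseudocount of 10 CPM, which understates ratios of genes with few counts. Ratios within an experiment used no pseudocount and genes with at least 100 UMIs. With 1 library per condition no test of conditions was run. Intervals are exact Poisson intervals for levels, exact Clopper-Pearson intervals for shares and exact conditional intervals for ratios, and they take UMIs or cells as independent. Named genes were the rule's genes, the 20 highest and 10 lowest over the 4 libraries with a UMI in at least 5% of the cells, the 5 largest and smallest ratios per experiment and in both, and examples from gene lists, a few of which are not reported here. Members, lists and limits were chosen with earlier results of these data known. Doublets were not removed, and Scrublet calls, which took in 7.41%, 6.97%, 4.67% and 0.907% of kept cells, served as an alternative. Python 3.11.15, numpy 2.4.6, scipy 1.17.1, scanpy 1.11.5 and matplotlib 3.10.9 were used, and the scripts were tested on simulated data.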

Additional observations from a re-analysis of the deposited data

Results flagged for a closer look

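For 5 of 8761 genes the log2 ratio of members over outer-gene-low keratinocytes was on opposite sides of 0 in the lymph node libraries and the diet libraries, by at least 0.4 on each side, a limit chosen after the data had been seen. The smallest gap between the diet and the lymph node libraries was 1.49 for Cxcl14, 1.37 for Sema3e, 1.25 for Lgr5, 1.25 for Lhx2 and 0.976 for Gm973. The difference was not tested, since each condition was 1 library and the Cell Ranger version and depth differed between the experiments. All cells were also thinned to 4000 UMIs and the rule was applied again. The log2 ratios in the order LNR, sham, SAR131675 and control were then -0.43, -0.27, -0.79 and -0.38 for Cxcl14, -1.11, -0.45, -0.12 and 0.17 for Sema3e, and -0.53, -0.13, -0.42 and -0.68 for Gm973. The opposite directions were no longer found for these genes except for Sema3e in the control library. Lgr5 and Lhx2 were below 0 in all 4 thinned libraries.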

How the results depend on the processing

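Values are given in the order LNR, sham, SAR131675 and control. With at least 3 gate genes the share of members was 21.9%, 20.8%, 41.8% and 36.8%, with at least 5 it was 2.31%, 1.59%, 10.7% and 9.31%, with 4 of the 5 markers other than Ntrk2 it was 3.77%, 2.94%, 14.6% and 12.7%, and after thinning to 4000 UMIs it was 2.86%, 2.53%, 8.59% and 7.95%. In the SAR131675 and control libraries it was 25.8% and 23.2% without upper limits on genes and UMIs, and 20.4% and 19.3% with at least 1% keratin. The log2 ratio of LNR over sham shares was 0.54 with at least 5 gate genes and 0.36 without Ntrk2, and it turned to -0.023 as a share of all kept cells.

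With 1 CPM added in place of 10, 73 genes were higher and 46 lower in members than in outer-gene-low cells. The lower genes numbered 7 without upper limits, 9 with at least 3 gate genes, 29 with at least 5 and 41 after thinning. Genes past 2-fold higher with SAR131675 numbered 94 without upper limits, 71 with at least 3 gate genes, 23 with at least 5, 26 with 1% keratin, 30 without Ntrk2, 6 after thinning, 277 with a minimum of 20 UMIs and 1 among widely detected genes. The lower ones numbered 74 without upper limits, 20 with 1% keratin, 12 after thinning, 250 with 20 UMIs and 8 among widely detected genes. Genes higher in LNR numbered 42 without upper limits, 42 with at least 3 gate genes, 4 with at least 5, 14 with 1% keratin, 7 without Ntrk2, 2 after thinning, 11 without fibroblast-marker members, 188 with 20 UMIs and 7 among widely detected genes. The lower ones numbered 4 with 1% keratin, 30 with no limit on genes of dividing cells, 6 after thinning, 141 with 20 UMIs and 2 among widely detected genes. The cause was not tested.

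Without the barcodes that Scrublet called, 32 genes were higher and 42 lower with SAR131675, and 16 were higher and 15 lower in LNR, against 47, 39, 23 and 14 with them. It called 7.41%, 6.97%, 4.67% and 0.907% of kept cells where rates of 15.9%, 16.5%, 23.3% and 19.2% were expected, so little was removed, least in control. These counts were 54, 34, 23 and 14 after centring the ratios on the median of all genes tested, and 49, 29, 21 and 12 without the highest cell per gene and library. Leaving out fibroblast-marker members or the highest cell and restricting to widely detected genes were chosen after the data had been seen. No paired analysis was possible because each condition had 1 library and the groups compared share fewer than 2 replicate numbers. With no replicates, no library could be left out, and the smaller number of members in LNR and sham limits the precision there.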
